A study of Mus musculus with 16 samples.

Results

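Gfap, Vim, Nes, Cd44, Lcn2, Serpina3n, Steap4 and S1pr3 are genes long used to recognise reactive glia in the injured nervous system. These 8 reactive glia genes were taken by name from the 55487 genes of the deposited count table, and all 8 were found. They were followed through the 17 deposited cell clusters of the mouse spinal cord, with the astrocytes of Clusters 2, 5 and 7 described before the other cell types, and through uninjured tissue and 3 times after a lesion.

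Astrocytes answer injury by becoming reactive: they enlarge a cytoskeleton of intermediate filaments, alter the receptors on their surface and secrete proteins that act on neighbouring cells, vessels and immune cells. In the injured spinal cord, reactive astrocytes next to the lesion form a border around it. Gfap, Vim and Nes encode intermediate filament proteins, Cd44 a receptor for hyaluronan, Lcn2 a secreted protein that binds iron-carrying siderophores, Serpina3n a secreted inhibitor of serine proteases, Steap4 a membrane metalloreductase and S1pr3 a receptor for the lipid sphingosine-1-phosphate.

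Single cells were taken from the spinal cords of Ryk cKO mice (Rykfl/fl,GFAPcreERT2) and WT mice (Ryk+/+,GFAPcreERT2) aged 8 to 10 weeks. Each genotype was sampled uninjured, a condition named Sham in the sample labels, and then at 1 d, at 7 d or at 14 d past a lesion of the dorsal columns, with 2 mice in each of the 8 groups. All groups, WT included, carried the GFAPcreERT2 transgene and so expressed a tamoxifen-dependent Cre from a GFAP promoter, while Gfap is also among the genes measured. RNA molecules were counted as unique molecular identifiers (UMIs) in 18203 cells, and levels are given as a gene's UMIs scaled to a total of 1e+06 (CPM) within the same mouse and cell type. Mice with at least 10 such cells were used.

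Depth differed among the 15 mice used. The uninjured WT mice held 3074681 and 2117284 UMIs and the uninjured Ryk cKO mice 774242 and 1963422. At 1 d the WT mouse held 536263 UMIs and the Ryk cKO mice 666731 and 4601448. The 7 d totals were 649625 and 3032957 UMIs in WT and 1236573 and 9008729 in Ryk cKO, and the 14 d totals were 3074365 and 8786767 in WT and 6559483 and 7264837 in Ryk cKO. The 4 libraries of replicate 1 at 1 d and 7 d were shallow, with medians of 414, 421, 414 and 548 UMIs per cell in WT 1 d, Ryk cKO 1 d, WT 7 d and Ryk cKO 7 d, against 1040.5 to 3637 in the other 11. The library of WT 1 d replicate 2 held 1 cell with 266 UMIs and was left out, so that WT 1 d rested on 1 mouse, with a spread taken from the other groups.

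Some libraries stood apart in other ways. The names of the cells carried another condition than the sample title for 6 of the 16 mice, all of replicate 2, and the titles were used. In all, 166 barcodes occurred in more than 1 library, in 432 cells of 17937 barcodes. Such cells made up 11.6% of WT 1 d replicate 1 and 10.1% of WT 7 d replicate 1, 2 libraries that shared 115 barcodes, 6.21% of Ryk cKO 1 d replicate 1, 2.30% of Ryk cKO 7 d replicate 1 and at most 0.789% of any other mouse used. Doublets were neither called nor removed here, and the authors' cell calls were not rerun. Replicate number and the batch of the deposited cell table were the same in all 16 mice.

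Ryk itself could be read in the astrocytes of every mouse. It was counted at 123 and 54.0 CPM in uninjured WT and at 66.1 and 85.1 CPM in uninjured Ryk cKO, and at 101 CPM in WT 1 d against 23 and 69.0 CPM in Ryk cKO 1 d. The later values were 157 and 116 CPM in WT 7 d, 90.1 and 119 CPM in Ryk cKO 7 d, 105 and 108 CPM in WT 14 d and 121 and 123 CPM in Ryk cKO 14 d. The genotypes overlapped uninjured and at 7 d. At 1 d the WT mouse was above both Ryk cKO mice, and at 14 d both Ryk cKO mice were above both WT mice. The sequenced 3′ end of a transcript need not cover the deleted part of the gene, so these counts check neither the deletion nor the labels.

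The astrocyte clusters held all 8 of the astrocyte markers examined, of which Slc1a2 was the most abundant. Cluster 5 held them at a sum of 15542 CPM, Cluster 7 at 11698 and Cluster 2 at 8466, and the 3983 astrocytes of the 3 clusters together at 12430. Oligodendrocyte markers also reached 5265 CPM in Cluster 2, against 3331 in Cluster 5 and 672 in Cluster 7. Cluster 2 further held neuron markers at 2080 CPM. Endothelial markers in Cluster 2 were at 12691 CPM in WT 7 d replicate 1 and 4502 CPM in uninjured WT replicate 1, from 14 and 11 cells, and at 16.4 to 544 CPM in the other 9 mice. Astrocytes at 1 d were few in the shallow libraries, with 59501 UMIs from 141 cells in WT and 43475 UMIs from 110 cells in Ryk cKO replicate 1, against 928075 UMIs from 502 cells in Ryk cKO replicate 2. The mix of clusters differed too. Cluster 2 gave 11 of 136 and 269 of 581 cells in uninjured WT, 5 of 32 and 248 of 540 in uninjured Ryk cKO, and 4 of 141, 6 of 110 and 187 of 502 at 1 d. Cluster 5 gave 35, 260, 7 and 227 cells of the same uninjured mice and 65, 36 and 237 at 1 d. The part of this mix in the levels of all astrocytes was not tested, and the clusters are also given apart below.

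At 1 d after the lesion, the mean level of all 8 genes in astrocytes was above that of uninjured mice, and Lcn2, Serpina3n and S1pr3 rose. The 2 secreted proteins and the lipid receptor thus passed the test, while the 3 filament genes and Cd44 were higher in all 3 injured mice than in any of the 4 uninjured mice without passing it. With the UMIs summed per mouse and compared by the edgeR quasi-likelihood test in a fit of time and genotype, 27 of 8923 genes were higher at 1 d (0.303%) at a Benjamini-Hochberg adjusted p under 0.05, and 0 were lower. Among the 8 genes 3 of the 7 that were abundant enough to be tested were called, and Steap4 was too sparse. The 7 had a median log2 fold change of 3.10 beside -0.10 over all genes tested. A gene near 0 in uninjured mice, such as Lcn2, enters the test through the mice in which it is high. The median of the 7 therefore leans upward and carries no weight. The edgeR test put 489 genes and all 7 of these with p under 0.05 before adjustment, and DESeq2 called 43 genes higher and 7 lower, 3 of the reactive glia genes among them. Fewer were called by edgeR under other alternatives, with 2 of 8 under 8 group means, 2 of the 5 that could be tested with at least 10 UMIs in 3 mice or with cells thinned to 500 UMIs, and 0 of 7 in WT alone, in Ryk cKO alone and with conditions read from the cell names. In these last 3 fits edgeR called 0 of all genes. Over all genes edgeR called 9 of 11769 higher under 8 group means, 7 of 10196 with at least 10 UMIs in 3 mice and 4 of 3273 with thinned cells. Thinning also left out cells below 500 UMIs. Astrocytes then fell from 141 to 35 cells in WT 1 d and from 110 to 22 in Ryk cKO 1 d replicate 1. In alternatives added after the data were seen, edgeR also called 3 of the 7 without cells whose barcode occurs in another library, and 30 of 8834 genes higher. It called 3 of the 7 without the 4 shallow libraries too, where 1 d is the single mouse Ryk cKO replicate 2. With a term for the animal number series, which sets 6 mice numbered below 10000 apart, it called 6 of the 7, and 89 of 9971 genes higher.

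**Figure D1:**
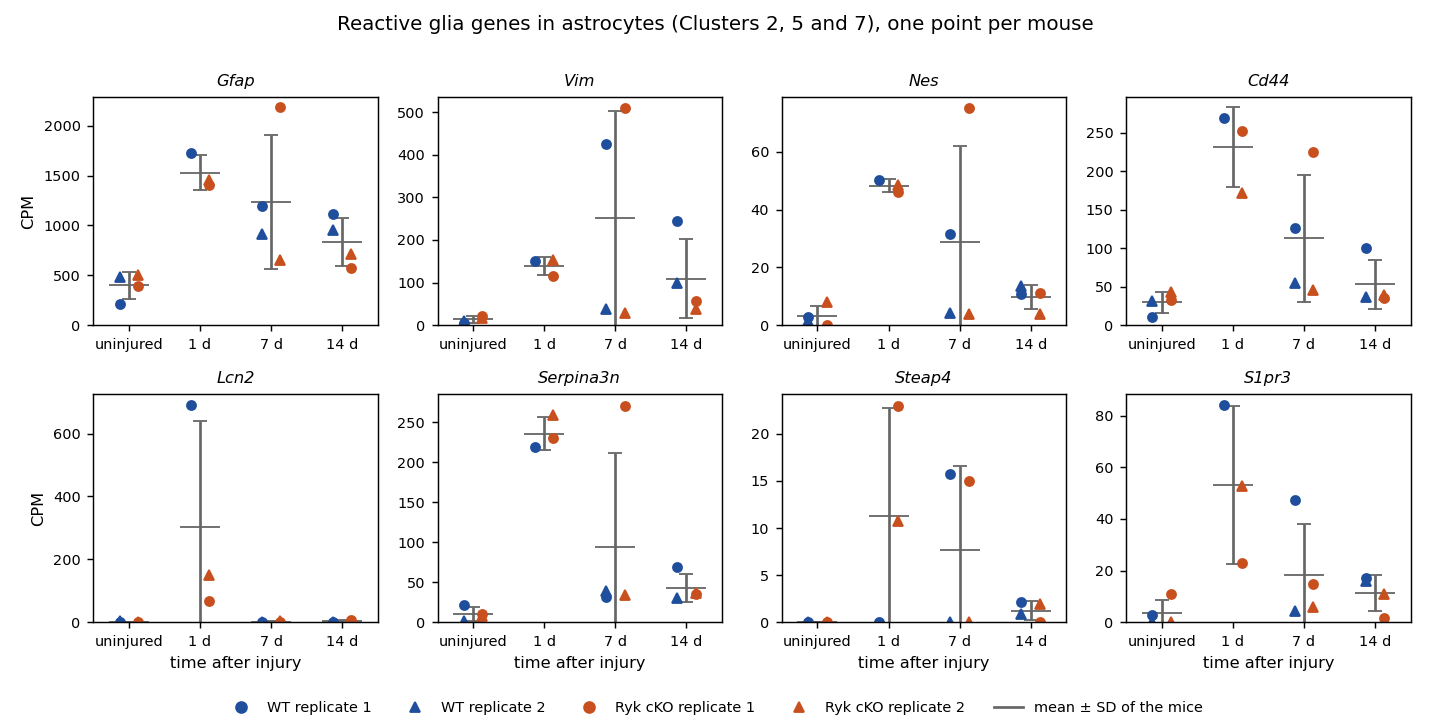
Level of each of the 8 genes in astrocytes (Clusters 2, 5 and 7 together), in CPM, against time after the lesion, with 1 panel per gene and 1 point per mouse; WT in blue, Ryk cKO in orange, circles for replicate 1, triangles for replicate 2, and bars for the mean ± SD. All 3 mice at 1 d lie above all 4 uninjured mice for every gene but Steap4.

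Gfap, the filament protein by which astrocytes are usually recognised, was counted at 213 and 487 CPM in uninjured WT and at 397 and 508 CPM in uninjured Ryk cKO. At 1 d it stood at 1731 CPM in WT and at 1403 and 1454 CPM in Ryk cKO. All 3 mice at 1 d thus lay far above the uninjured range, with means of 1529 ± 177 CPM (SD, n = 3) and 401 ± 134 CPM (n = 4). The log2 fold change of 1.38 ± 0.48 (SE) did not pass the edgeR test (Benjamini-Hochberg adjusted p = 0.551). Within replicate 1 the ratio of the means was 5.14 and within replicate 2 it was 2.92.

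Gfap at 7 d was 1196 and 912 CPM in WT and 2191 and 652 CPM in Ryk cKO, and at 14 d it was 1111 and 951 CPM in WT and 569.7 and 709 CPM in Ryk cKO. All 8 mice at these times were above the highest uninjured mouse, with means of 1238 ± 674 and 835 ± 242 CPM. The log2 fold changes over uninjured mice were 1.08 ± 0.45 at 7 d (edgeR, Benjamini-Hochberg adjusted p = 0.732) and 0.67 at 14 d, neither past the test.

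Vim, the filament protein vimentin of mesenchymal and immature glial cells, was near the limit of counting in uninjured astrocytes, at 5.46 and 9.44 CPM in WT and 22.05 and 17.6 CPM in Ryk cKO, from 2, 7, 2 and 13 UMIs. At 1 d it was 151 CPM in WT and 115 and 152 CPM in Ryk cKO. The groups did not overlap, and the counts summed over the 3 mice were 12.1 times those of the uninjured mice (95% counting interval 7.87 to 19.5; the intervals given here cover counting error only). Its log2 fold change of 3.10 ± 0.96 did not pass the edgeR test (Benjamini-Hochberg adjusted p = 0.430), and the ratio of means was 9.68 within replicate 1 and 11.3 within replicate 2. Vim was called with the animal number term (edgeR adjusted p = 0.0204) and with no filter on low counts (5.46e-06), over a range of 5.46e-06 to 1.0 among the alternatives.

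Vim at 7 d split by replicate, with 425 CPM in WT and 510.3 CPM in Ryk cKO of replicate 1 and 37.2 CPM in WT and 29.7 CPM in Ryk cKO of replicate 2. At 14 d it was 244 and 98.5 CPM in WT and 56.5 and 38.2 CPM in Ryk cKO. Every mouse at both times was above the uninjured mice, and the log2 fold changes were 3.44 ± 0.92 and 2.62 ± 0.88 without passing the test. Without the 4 shallow libraries, an alternative added after the data were seen, the 7 d value was 1.05. Vim is also abundant in endothelial cells, whose markers in astrocytes summed to 123, 47.2, 88.2 and 190.5 CPM uninjured, 387, 506 and 303 CPM at 1 d, 1054, 30.6, 240.2 and 54.7 CPM at 7 d and 92.0, 271, 40.3 and 133 CPM at 14 d, WT mice first and replicate 1 before replicate 2. Flt1 led them in all mice but uninjured Ryk cKO replicate 1 (Cldn5) and WT 1 d (Ly6c1), and the sums were also high at 1 d and in replicate 1 at 7 d. Of the 6 markers 5 or 6 were found in each injured mouse, and their part in the Vim levels was not tested. Ependymal cells had the highest mean Vim level over mice of all times. They left 0 of 6 markers in the astrocytes of WT 1 d and Ryk cKO 1 d replicate 1, and 65.7 CPM, mostly Tppp3, in Ryk cKO 1 d replicate 2.

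Nes encodes nestin, the filament protein of neural progenitors, and was the sparsest of the filament genes in astrocytes. Uninjured mice gave 2.73 and 1.35 CPM in WT and 0 and 8.11 CPM in Ryk cKO, which is 8 UMIs in all. At 1 d the levels were 50.4 CPM in WT and 46.0 and 48.5 CPM in Ryk cKO, from 3, 2 and 45 UMIs. The 3 mice at 1 d were close together and all above the uninjured mice, with means of 48.3 ± 2.21 and 3.05 ± 3.55 CPM and summed counts 11.8 times as high (5.53 to 28.7). The log2 fold change of 3.03 ± 0.86 did not pass the edgeR test (Benjamini-Hochberg adjusted p = 0.299), the ratio within replicate 2 was 10.3, and within replicate 1 the means were 48.2 and 1.37 CPM. Nes was called with the animal number term (edgeR adjusted p = 0.0307) and with no filter (0.00145), over a range of 0.00145 to 1.0. Endothelial cells are the richest in Nes, and the sums of their markers given with Vim were above the uninjured mice at 1 d as Nes was. Their part in the Nes levels was not tested. In Cluster 5 the Nes means at 1 d were 127 against 0 CPM within replicate 1 and 70.7 against 7.62 CPM within replicate 2. In Cluster 7 they were 0 against 1.71 CPM and 17.2 against 2.67 CPM, with 1 of 3 mice above the uninjured mice.

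Nes at 7 d was 31.5 and 4.37 CPM in WT and 75.05 and 3.95 CPM in Ryk cKO, again higher in replicate 1, where it rested on 2 and 5 UMIs. At 14 d it was 10.7 and 13.6 CPM in WT and 11.3 and 3.92 CPM in Ryk cKO. These values overlapped the uninjured range, with 2 of 4 mice at 7 d and 3 of 4 at 14 d above it.

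Cd44 binds hyaluronan in the extracellular matrix and marks a subset of astrocytes as well as many leukocytes. It was counted at 10.9 and 31.0 CPM in uninjured WT and 33.1 and 43.2 CPM in uninjured Ryk cKO. At 1 d the levels were 269 CPM in WT and 253 and 172 CPM in Ryk cKO. All 3 mice stood above the uninjured mice, with means of 231 ± 51.7 and 29.6 ± 13.5 CPM and summed counts 5.67 times as high (4.23 to 7.69). The log2 fold change of 2.28 ± 0.58 did not pass the edgeR test (Benjamini-Hochberg adjusted p = 0.157), and the ratio was 11.9 within replicate 1 and 4.64 within replicate 2. Cd44 was called with the animal number term (edgeR adjusted p = 0.0101), without TMM (0.0141) and with no filter (0.000541), over a range of 0.000541 to 1.0. Macrophage markers in the same astrocytes summed to 16.8, 0 and 29.1 CPM at 1 d and to 2.73, 12.1, 33.1 and 4.05 CPM uninjured, and these groups overlapped. The part of such cells in the Cd44 levels was not tested.

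Cd44 at 7 d was 126 and 54.7 CPM in WT and 225 and 45.5 CPM in Ryk cKO, each above the uninjured mice, and the higher value of either genotype was in replicate 1. At 14 d it was 101 and 36.5 CPM in WT and 35.5 and 39.2 CPM in Ryk cKO, and 1 of 4 mice, WT replicate 1, was above the uninjured range.

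Lcn2, whose protein withholds siderophore-bound iron from bacteria and is released by many cells in inflammation, was almost absent from uninjured astrocytes. It gave 0 and 2.70 CPM in WT and 0 and 0 CPM in Ryk cKO, or 2 UMIs in 4 mice. At 1 d it was 689 CPM in WT and 69.0 and 151 CPM in Ryk cKO, from 41, 3 and 140 UMIs. The 3 mice at 1 d were far above the 4 uninjured mice, the WT mouse being the highest and Ryk cKO replicate 1 the lowest. The summed counts were 173 times as high at 1 d (counting interval 47.2 to 1439), and the means were 379 against 0 CPM within replicate 1 and 151 against 1.35 CPM within replicate 2. Lcn2 rose with a log2 fold change of 7.48 ± 0.92 (edgeR, Benjamini-Hochberg adjusted p = 0.000499).

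The Lcn2 call was kept when any single mouse was left out, at log2 fold changes of 5.62 to 10.05 and an edgeR adjusted p of at most 0.0328. It was lost in WT alone (Benjamini-Hochberg adjusted p = 0.162), in Ryk cKO alone (0.0901) and with conditions read from the cell names (0.722), where the log2 fold changes were 7.72, 9.38 and 6.18. With at least 10 UMIs asked for in 3 mice Lcn2 was not tested, and over the alternatives that tested it the edgeR or DESeq2 adjusted p ran from 3.77e-24 to 0.722. Neutrophil markers in the astrocytes, where found, were led by S100a8 or S100a9, and by Camp in Ryk cKO 14 d replicate 2. They summed to 8.19, 90.4, 11 and 0 CPM uninjured and 0, 0 and 140 CPM at 1 d. At 7 d they summed to 0, 2.19, 15.0 and 69.9 CPM and at 14 d to 6.42, 5.09, 9.68 and 3.92 CPM, in the order used for the endothelial markers. All 9 of them were at 0 in WT 1 d and Ryk cKO 1 d replicate 1 and all 9 were found in Ryk cKO 1 d replicate 2. Without the cells that held a UMI of S100a8 or S100a9 the log2 fold change was 7.23 ± 0.95 (adjusted p = 0.00136). Endothelial cells held Lcn2 at 488 to 1046 CPM at 1 d, and their markers in the astrocytes, given with Vim, were above every uninjured mouse at 1 d; their part in the Lcn2 levels was not tested. In Cluster 5 alone, which held 33 of the 41 Lcn2 UMIs of WT 1 d, these markers summed to 0, 71.4 and 256 CPM at 1 d and to 0, 52.6 and 181 CPM in the 3 uninjured mice with enough cells, and the groups overlapped. The WT 1 d mouse had 0 of the 6 markers there among 27162 UMIs, as did uninjured WT replicate 1 among 64857 UMIs. The part of endothelial RNA in the Lcn2 level of Cluster 5 was not tested.

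Lcn2 at 7 d was back near 0 in astrocytes, with 0 and 0 CPM in WT and 0 and 3.95 CPM in Ryk cKO. At 14 d it was 2.14 and 0 CPM in WT and 8.07 and 0.979 CPM in Ryk cKO, from 7 UMIs in all. All 8 mice of these times lay below all 3 mice at 1 d. Lcn2 fell from 1 d to 7 d, at a log2 fold change of -6.28 ± 0.82 (edgeR, Benjamini-Hochberg adjusted p = 0.00172), and from 1 d to 14 d, at -6.69 ± 0.74 (adjusted p = 0.000161). It was the only 1 of the 7 tested genes called in either comparison, with 0.0897% of all genes called lower at 7 d than at 1 d and 0.269% at 14 d than at 1 d, and DESeq2 also called 1 of them in each.

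Serpina3n, an extracellular inhibitor of proteases such as granzyme B and leukocyte elastase, was counted at 21.8 and 1.35 CPM in uninjured WT astrocytes and at 11 and 8.11 CPM in uninjured Ryk cKO astrocytes. At 1 d it was 218.5 CPM in WT and 230.0 and 259 CPM in Ryk cKO. The 3 mice at 1 d were close to each other and far above the uninjured mice, with means of 236 ± 20.7 and 10.6 ± 8.53 CPM and summed counts 30.9 times as high (18.7 to 54.9). Serpina3n rose with a log2 fold change of 4.19 ± 0.69 (edgeR, Benjamini-Hochberg adjusted p = 0.0114), and the ratio of means was 13.6 within replicate 1 and 54.7 within replicate 2. The call was lost without Ryk cKO 1 d replicate 2 (edgeR adjusted p = 0.123) or uninjured Ryk cKO replicate 2 (0.0576), in WT alone (0.862), in Ryk cKO alone (0.180) and with conditions read from the cell names (0.722), and the adjusted p ran from 2.13e-11 to 0.862 over all alternatives. Oligodendrocyte markers summed in the astrocytes to 471, 1104 and 3016 CPM at 1 d and to 639, 4825, 1224 and 6046 CPM uninjured. Serpina3n in oligodendrocytes themselves was also higher at 1 d, at 776 to 1239 CPM against 0 to 26.2 CPM uninjured, and the part of their RNA in the astrocyte levels was not tested.

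Serpina3n at 7 d was 31.5 and 39.4 CPM in WT and 270.2 and 34.3 CPM in Ryk cKO, where replicate 1 of Ryk cKO stood far above the other 3 mice. At 14 d it was 68.5 and 30.6 CPM in WT and 35.5 and 37.2 CPM in Ryk cKO. All 8 mice were above the highest uninjured mouse, and the log2 fold changes of 2.42 ± 0.71 at 7 d and 1.88 ± 0.65 at 14 d did not pass the test.

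Steap4, which reduces iron and copper at the cell membrane, was the sparsest of the 8 genes. It was at 0 UMIs in all 4 uninjured mice. At 1 d it gave 0 CPM in WT and 23 and 10.8 CPM in Ryk cKO, from 11 UMIs, which is at least 6.89-fold higher than a floor of 3 counts over the uninjured group. At 7 d it gave 15.7 and 0 CPM in WT and 15.0 and 0 CPM in Ryk cKO, and at 14 d 2.14 and 0.849 CPM in WT and 0 and 1.96 CPM in Ryk cKO, all from 1 or 2 UMIs where it was found. The times overlapped, and the gene was too sparse for the test over time.

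S1pr3 is among the receptors through which sphingosine-1-phosphate acts on cells. Uninjured astrocytes held it at 2.73 and 0 CPM in WT and 11 and 0 CPM in Ryk cKO, from 1 UMI in each of 2 mice. At 1 d it was 84.0 CPM in WT and 23 and 52.8 CPM in Ryk cKO, from 5, 1 and 49 UMIs. All 3 mice at 1 d were above all 4 uninjured mice, and the summed counts were 51.7 times as high (13.6 to 438). S1pr3 rose with a log2 fold change of 5.35 ± 0.92 (edgeR, Benjamini-Hochberg adjusted p = 0.0164), and the means were 53.5 against 6.88 CPM within replicate 1 and 52.8 against 0 CPM within replicate 2. In Cluster 7 alone 1 of 3 mice at 1 d was above the uninjured mice. Its means there were 0 against 8.23 CPM within replicate 1 and 68.7 against 0 CPM within replicate 2.

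The call of S1pr3 was lost under more alternatives than those of Lcn2 and Serpina3n. They were leaving out Ryk cKO 1 d replicate 2 (edgeR, Benjamini-Hochberg adjusted p = 0.316), uninjured WT replicate 2 (0.0556) or uninjured Ryk cKO replicate 2 (0.0721), 8 group means in place of the additive fit (0.168), WT alone (0.862), Ryk cKO alone (0.377) and conditions read from the cell names (1.0). With cells thinned to 500 UMIs it was too sparse to test. The adjusted p ran from 4.13e-08 to 1.0 over the alternatives. Pericytes are the richest in S1pr3, and their markers in the astrocytes summed to 134, 161 and 143 CPM at 1 d and to 188, 45.9, 165 and 109 CPM uninjured, a range that holds the 1 d values, and their part was not tested. At 7 d S1pr3 was 47.2 and 4.37 CPM in WT and 15.0 and 5.93 CPM in Ryk cKO, and at 14 d it was 17.1 and 16.1 CPM in WT and 1.61 and 10.8 CPM in Ryk cKO, with 2 of 4 mice above the uninjured range at each time.

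Later than 1 d none of the genes passed the test in astrocytes, although Gfap, Vim and Serpina3n were above the uninjured range in all 8 mice of 7 d and 14 d. In the edgeR test 0 of the 7 tested genes and 0 of 8923 genes (0%) were called higher at 7 d, with 562 genes and 4 of the 7 with p under 0.05 before adjustment, and DESeq2 called 0 of the 7. At 14 d edgeR again called 0 of the 7 and 0 of 8923 (0%), with 333 genes and 3 of the 7 with p under 0.05 before adjustment, and DESeq2 called 0. Between 7 d and 14 d edgeR called 0 genes, with 137 with p under 0.05 before adjustment, and DESeq2 called 0 with 156. The median log2 fold changes of the 7 genes over uninjured mice were 1.21 at 7 d and 0.82 at 14 d, beside -0.03 over all genes at either time. With the term for the animal number series 39 genes were called higher and 246 lower at 7 d, and 25 higher and 223 lower at 14 d. Vim and Serpina3n were then called at 7 d (edgeR, Benjamini-Hochberg adjusted p = 0.0378 and 0.0313, range of all alternatives 1.07e-07 to 1.0 and 0.00469 to 1.0) and at 14 d (0.0153 and 0.0363, range 7.14e-05 to 1.0 and 0.0363 to 1.0). The time comparisons share the uninjured mice or the 1 d mice and are not independent.

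Other genes of the reactive state were read from lists of related genes. Among 6 further genes shared by reactive astrocytes of different injuries, 5 were tested at 1 d and 3 rose: Timp1, an inhibitor of matrix metalloproteinases, by 7.02 (edgeR, Benjamini-Hochberg adjusted p = 0.00209), the small heat shock protein Hspb1 by 5.09 (0.0038) and the oncostatin M receptor Osmr by 3.98 (0.0262) on the log2 scale. Aspg and Cp stood at 2.61 and 1.65 and did not pass. Of 12 genes tied to the response to ischemia 4 were tested and 2 rose, the transglutaminase Tgm1 by 8.47 (adjusted p = 0.00386) and Tm4sf1 by 4.23 (0.0255), and of 11 tied to neuroinflammation 5 were tested and 0 passed, at a median of 2.27, which includes Serping1 at 3.85 and Srgn at 2.27. The list medians were 3.98 and 2.91 for the former lists, beside -0.10 over all genes. A gene near 0 at other times enters the test only where it is high at 1 d. The medians of these lists and of the 8 members therefore lean upward and carry no weight. The shares called among the genes tested lean upward in the same way.

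Among 13 genes of the cytokine pathway that signals through Stat3, 7 were tested and Osmr alone passed, with Stat3 itself at 1.45 ± 0.36 (edgeR, Benjamini-Hochberg adjusted p = 0.126) and a median of -0.23. The 11 intermediate filament genes, Gfap, Vim and Nes included, had 9 tested, 0 called and a median of 0.03, from Nefl at -1.26 and Nefm at -1.24 to Lmna at 1.58 beside the members. Of 16 ligands, receptors and relatives of the 8 genes 4 were tested and 0 passed, at a median of -0.28, with the sphingosine-1-phosphate receptor S1pr1 at -0.79 ± 0.32, Steap3 at -0.34, the Lcn2 receptor Slc22a17 at -0.21 and the Cd44 ligand Spp1 at 1.59. In the Serpina3 family of 11 genes Serpina3n was the only 1 abundant enough to test. At 7 d and 14 d against uninjured mice edgeR called 0 genes of every list. Timp1 and Tgm1 fell from 1 d to 7 d, and Timp1, Tgm1, Hspb1 and Tm4sf1 fell from 1 d to 14 d.

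The astrocyte clusters differed in these genes. Cluster 5 stood highest in Gfap, and Cluster 7, with less Gfap, was the cluster in which the gene passed the test at 1 d. Cluster 2 had at least 10 cells at 1 d in Ryk cKO replicate 2 alone, with 4 and 6 cells in the others. It was not tested at that time, since tests were made where at least 2 mice of a time had 10 cells. Within mice, Cluster 5 was above Cluster 7 in Gfap in 14 of 14 mice, by 1.45 on the scale of log2(CPM + 50), in Cd44 in 14 of 14 by 0.54 ± 0.54 (SD) and in Serpina3n in 12 of 14 by 0.46. Lcn2 and S1pr3 were higher in Cluster 5 in 8 of 14 mice each, and Cluster 5 was above Cluster 2 in Cd44 in 10 of 11 mice and in Serpina3n in 9 of 11. The clusters were made from these same counts, so that these differences are a description.

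In Cluster 7 Gfap, Cd44 and Serpina3n rose at 1 d. Gfap was 136 and 217 CPM in uninjured WT and 299.97 and 203 CPM in uninjured Ryk cKO, against 902 CPM in WT 1 d and 938 and 1296 CPM in Ryk cKO 1 d. Cd44 was 10.2 and 21.7 CPM in uninjured WT and 26.1 and 26.7 CPM in uninjured Ryk cKO, against 193 CPM in WT 1 d and 144 and 165 CPM in Ryk cKO 1 d. Serpina3n was 17.1 and 0 CPM in uninjured WT and 13 and 0 CPM in uninjured Ryk cKO, against 129 CPM in WT 1 d and 289 and 268 CPM in Ryk cKO 1 d. In all 3 genes each mouse at 1 d was above each uninjured mouse. The edgeR test called 3 of the 4 genes tested in Cluster 7 (8 of 5351 genes, 0.15%), with log2 fold changes of 4.54 ± 0.59 for Serpina3n (Benjamini-Hochberg adjusted p = 7.54e-05), 2.29 ± 0.35 for Gfap (0.000677) and 3.15 ± 0.54 for Cd44 (0.0032), while Vim at 3.65 ± 0.90 (0.109) did not pass.

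Within replicate 1 the ratios of means in Cluster 7 were 4.22 for Gfap, 9.30 for Cd44 and 13.9 for Serpina3n, and within replicate 2 they were 6.16 for Gfap and 6.81 for Cd44, with Serpina3n at 268 against 0 CPM. All 3 calls were lost without Ryk cKO 1 d replicate 2 (edgeR, Benjamini-Hochberg adjusted p = 0.136 for Gfap, 0.356 for Cd44 and 0.0808 for Serpina3n), and in WT alone (0.747 for each). They were also lost with conditions read from the cell names (0.0548 for Gfap, 0.133 for Cd44 and 0.11 for Serpina3n). With each cell thinned to 500 UMIs Gfap was not called (0.157), and Cd44 and Serpina3n were too sparse to test. Thinning also left out smaller cells, taking WT 1 d from 72 to 20 cells and Ryk cKO 1 d replicate 1 from 68 to 15. In Ryk cKO alone Cd44 was not called (0.0507). Over all alternatives the adjusted p had ranges of 2.43e-06 to 0.747 for Gfap, 3.60e-05 to 0.747 for Cd44 and 3.63e-10 to 0.747 for Serpina3n. Vim was called with the animal number term (edgeR adjusted p = 0.0465), at least 10 UMIs in 3 mice (0.0407), no filter (0.0003) and without the 4 shallow libraries (0.0342), over a range of 0.0003 to 0.823. Hspb1 rose as well, by 5.02 on the log2 scale (adjusted p = 7.54e-05).

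Later in Cluster 7, Gfap was 504 and 819 CPM in WT 7 d, 897 and 453 CPM in Ryk cKO 7 d, 787 and 358 CPM in WT 14 d and 276 and 401 CPM in Ryk cKO 14 d, which put all 7 d mice and 3 of 4 mice at 14 d above the uninjured mice. The 7 d log2 fold change of 1.55 ± 0.33 did not pass the edgeR test (Benjamini-Hochberg adjusted p = 0.114), while DESeq2 called 1 of the genes at that time. Serpina3n was 53.1 and 37.7 CPM in WT 7 d, 56.1 and 28.1 CPM in Ryk cKO 7 d, 35.8 and 10.3 CPM in WT 14 d and 22.7 and 31.6 CPM in Ryk cKO 14 d, all below the 1 d mice. It fell from 1 d, at a log2 fold change of -2.77 ± 0.45 at 7 d (edgeR, Benjamini-Hochberg adjusted p = 0.00216) and -3.22 ± 0.42 at 14 d (7.73e-05). At 7 d it was 1 of 4 genes tested, with 0.0934% of all genes called lower than at 1 d, and at 14 d 2 of 4 were called, with 0.43% of all genes. Cd44 was 112 and 36.0 CPM in WT 14 d and 25.6 and 35.0 CPM in Ryk cKO 14 d and was the other to fall from 1 d (log2 fold change -1.92 ± 0.42; edgeR adjusted p = 0.0316).

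In Cluster 5, Lcn2 rose at 1 d and no other member was called. Lcn2 was 0 and 2.77 CPM in uninjured WT and 0 CPM in the uninjured Ryk cKO mouse with enough cells, against 1215 CPM in WT 1 d and 143 and 262 CPM in Ryk cKO 1 d, from 33, 2 and 126 UMIs. All 3 mice at 1 d were far above the 3 uninjured mice, and the WT mouse was the highest. The edgeR test called 1 of the 7 genes tested in Cluster 5 (4 of 4709 genes, 0.0849%), Lcn2, at a log2 fold change of 7.45 ± 1.11 (Benjamini-Hochberg adjusted p = 0.00597). Within replicate 1 the means were 679 against 0 CPM and within replicate 2 they were 262 against 1.39 CPM. The call was lost without WT 1 d replicate 1 (edgeR adjusted p = 0.13), uninjured WT replicate 2 (0.112) or uninjured Ryk cKO replicate 2 (0.250). It was also lost in WT alone (0.535) and with conditions read from the cell names (1.0), over a range of 5.76e-15 to 1.0 among the alternatives that tested it. With at least 10 UMIs asked for in 3 mice it was not tested. Lcn2 then fell, at -5.67 ± 0.91 from 1 d to 7 d (edgeR adjusted p = 0.0309; 1 of 7, with 0.0425% of genes called lower) and -5.75 ± 0.79 from 1 d to 14 d (0.00182; 1 of 7, with 0.106%). DESeq2 called 0 of the 7 genes in either comparison.

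S1pr3 in Cluster 5 was at 0 in all 3 uninjured mice and at 184 CPM in WT 1 d and 71.4 and 54.1 CPM in Ryk cKO 1 d, from 32 UMIs, at least 15.2-fold higher than the floor of 3 counts over the uninjured group. Serpina3n was 30.8, 2.77 and 12.5 CPM in the uninjured mice and 331, 143 and 277 CPM at 1 d. The groups did not overlap in either gene. Neither passed the edgeR test, at Benjamini-Hochberg adjusted p = 0.0612 for S1pr3 and 0.290 for Serpina3n. With replicate number in the fit as a replicate block both were called (0.0153 and 0.0216), and DESeq2 also called both (0.00129 and 0.04), over ranges of 3.49e-05 to 1.0 and 3.00e-08 to 1.0. Gfap was 570.5 and 590.1 CPM in uninjured WT and 580.3 CPM in uninjured Ryk cKO and then 2761, 2498 and 1613 CPM at 1 d, all above the uninjured mice, without passing (log2 fold change 1.16; adjusted p = 0.880). Cd44 at 15.4 to 56.2 CPM uninjured and 216 to 428 CPM at 1 d did not pass either (adjusted p = 0.691). Whether Clusters 5 and 7 differed in their response was not tested.

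Cluster 2 held Gfap at 122 and 487 CPM in uninjured WT, 654 CPM in uninjured Ryk cKO, 1255 CPM in Ryk cKO 1 d, 656 and 888 CPM in WT 7 d, 608 CPM in Ryk cKO 7 d, 575 and 953 CPM in WT 14 d and 695 and 499.6 CPM in Ryk cKO 14 d. The later mice overlapped the uninjured mice. In the edgeR test 0 of 4 tested members were called at 7 d or 14 d. Of all 4762 genes 0 were called higher and 2 lower at 7 d, and 1 higher and 4 lower at 14 d, with 248 and 294 with p under 0.05 before adjustment, and DESeq2 was not used for this cluster.

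Outside the astrocytes, Lcn2 rose in endothelial cells, the cells that line vessels. It was 10.7 and 4.15 CPM in uninjured WT and 7.68 and 10.2 CPM in uninjured Ryk cKO, against 1046 CPM in WT 1 d and 530.5 and 488 CPM in Ryk cKO 1 d, from 184, 107 and 305 UMIs. At 7 d it was 125 and 8.78 CPM in WT and 64.4 and 9.62 CPM in Ryk cKO, and at 14 d 29.0 and 26.4 CPM in WT and 72.9 and 19.1 CPM in Ryk cKO. Each mouse at 1 d was far above all others, replicate 1 was the higher at 7 d, and all 14 d mice were still above the uninjured mice. The edgeR test called 1 of 5 tested genes in endothelial cells at 1 d (5 of 9186 genes, 0.0544%), Lcn2, at a log2 fold change of 6.14 ± 0.78 (Benjamini-Hochberg adjusted p = 0.00366), and DESeq2 called 1 as well. It fell from 1 d, at -4.45 ± 0.69 at 7 d (edgeR adjusted p = 0.0190; 1 of 5, with 0.152% of genes called lower) and -4.28 ± 0.62 at 14 d (0.00543; 1 of 5, with 0.207%). At 14 d it stood 1.85 above uninjured mice without passing (0.479).

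The ratios of endothelial Lcn2 at 1 d were 85.8 within replicate 1 and 68.1 within replicate 2. The call was lost without WT 1 d replicate 1 (edgeR, Benjamini-Hochberg adjusted p = 0.0567), in WT alone (0.294), in Ryk cKO alone (0.422) and with conditions read from the cell names (1.0), over a range of 3.78e-50 to 1.0. Neutrophil markers were at 0 of 9 in the endothelial cells of WT 1 d and Ryk cKO 1 d replicate 1 and summed to 138 CPM in Ryk cKO 1 d replicate 2 and 81.0 CPM in uninjured WT replicate 2. Vim and Nes, which endothelial cells carried at 548 to 791 and 173 to 277 CPM uninjured, had log2 fold changes of 0.41 ± 0.29 and 0.21 ± 0.25 at 1 d and did not pass (adjusted p = 0.996 and 1.0). A difference in the Lcn2 response between endothelial cells and astrocytes was not tested.

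**Figure D2:**
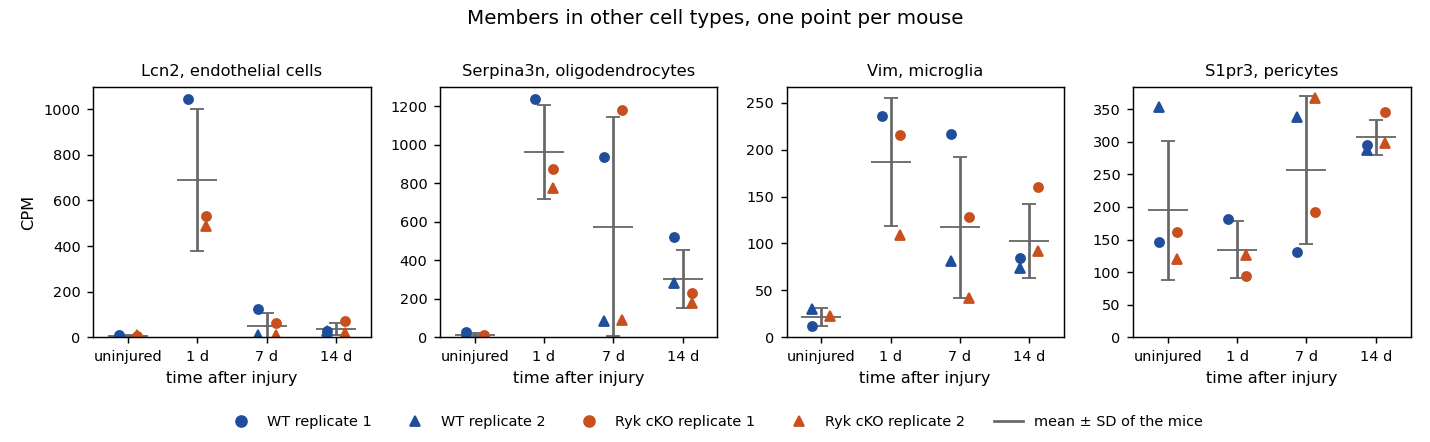
Levels in CPM against time after the lesion of Lcn2 in endothelial cells, Serpina3n in oligodendrocytes, Vim in microglia and S1pr3 in pericytes, with 1 point per mouse; WT in blue, Ryk cKO in orange, circles for replicate 1, triangles for replicate 2, and bars for the mean ± SD. The 3 mice at 1 d lie above the uninjured mice for Lcn2, Serpina3n and Vim and overlap them for S1pr3.

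After injury Serpina3n was abundant in oligodendrocytes, the myelinating glia of Clusters 4 and 8. It was 26.2 and 16.9 CPM in uninjured WT and 11.6 and 0 CPM in uninjured Ryk cKO, against 1239 CPM in WT 1 d and 872 and 776 CPM in Ryk cKO 1 d. At 7 d it was 938 and 86.6 CPM in WT and 1180.3 and 92.5 CPM in Ryk cKO, and at 14 d 522 and 280.02 CPM in WT and 230.1 and 177 CPM in Ryk cKO. All 11 injured mice were above all 4 uninjured mice, and at 7 d replicate 1 was far above replicate 2 in both genotypes. The log2 fold changes were 5.78 ± 0.93 at 1 d, 4.99 ± 0.90 at 7 d and 3.98 ± 0.88 at 14 d, and none passed the edgeR test (Benjamini-Hochberg adjusted p = 0.0660, 0.241 and 0.573).

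In oligodendrocytes at 1 d edgeR thus called 0 of the members and 0 of 6541 genes (0%), with 291 with p under 0.05 before adjustment, while DESeq2 called 3 genes, Serpina3n among them (adjusted p = 1.26e-06). DESeq2 also called 1 of the 4 members tested at 7 d, the only 1 of all genes called higher, and 1 of the 4 at 14 d, among 3 called higher. With replicate number as a replicate block edgeR called Serpina3n too (Benjamini-Hochberg adjusted p = 0.0034), and over all alternatives the adjusted p ran from 8.51e-21 to 1.0. Summed counts were 40.3 times those of uninjured mice (26.9 to 63.2), with a ratio of 55.8 within replicate 1 and 776 against 8.46 CPM within replicate 2. Cluster 8 was above Cluster 4 in 12 of 14 mice, by 1.52 ± 0.77 (SD) on the scale of log2(CPM + 50), and above the astrocytes of Cluster 5 in 13 of 14 by 1.89 ± 1.33. Cluster 8 alone held 59.2, 14.3 and 0 CPM uninjured and 2102, 1444 and 1293 CPM at 1 d, and Cluster 4 alone 8.10, 18.7, 12.5 and 0 CPM and 631, 437 and 399 CPM. Tested apart, which was added after these values were seen, neither passed (edgeR adjusted p = 0.145 and 0.208).

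Microglia, the resident macrophages of the cord, were the other class in which a filament gene was called. Vim was 11.6 and 30.05 CPM in uninjured WT and 23 CPM in the uninjured Ryk cKO mouse with enough cells, against 236 CPM in WT 1 d and 215 and 109 CPM in Ryk cKO 1 d. It then stood at 217 and 81.6 CPM in WT 7 d, 129 and 41.9 CPM in Ryk cKO 7 d, 84.4 and 73.5 CPM in WT 14 d and 160.4 and 91.6 CPM in Ryk cKO 14 d. All 11 injured mice were above the 3 uninjured mice. Vim rose at 1 d by 3.08 ± 0.74 on the log2 scale (edgeR, Benjamini-Hochberg adjusted p = 0.0371), 1 of 4 genes tested, in a class where 1.55% of all 7348 genes were called higher. Neither DESeq2 nor leaving out single mice was run for microglia. Nes in microglia was 3.88, 22.5 and 57.5 CPM uninjured and 139, 113 and 99.2 CPM at 1 d, where it did not pass (adjusted p = 0.0928). Nes fell from 1 d to 7 d at -2.12 ± 0.56 (edgeR adjusted p = 0.0329), 1 of 4 genes tested, where 3.57% of genes were called lower. Macrophage markers in the same cells summed to 307, 699 and 345 CPM uninjured, 1026, 646 and 254 CPM at 1 d and 935.5 to 3978 CPM at 7 d. Endothelial markers, led by Pecam1 in uninjured WT and by Flt1 in all other mice, summed in the microglia to 54.3, 60.1 and 150 CPM uninjured, 374, 236 and 261 CPM at 1 d, 128, 52.2, 134 and 119.6 CPM at 7 d and 87.2, 254, 93.5 and 131 CPM at 14 d. They were thus above the uninjured mice in all 3 mice at 1 d, as Vim and Nes were, with 5 or 6 of 6 markers found. The part of either marker list in these changes was not tested.

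The microglia joined Clusters 6 and 10, of which Cluster 10 was the higher in Vim in 13 of 14 mice. Cluster 10 gave 13 of 92, 28 of 67 and 16 of 38 microglia uninjured, 34 of 121, 41 of 161 and 59 of 106 at 1 d and 66 of 228, 48 of 101, 175 of 576 and 36 of 85 at 7 d. In Cluster 10 alone Vim was 0, 109.8 and 42.4 CPM uninjured and 611, 657 and 201 CPM at 1 d, and in Cluster 6 alone 12.9, 9.45 and 15.8 CPM and 42.0, 0 and 27.4 CPM. Nes in Cluster 10 was 38.9, 36.6 and 169.8 CPM uninjured and 285, 156 and 124 CPM at 1 d, and in Cluster 6 it was 0, 18.9 and 15.8 CPM and 63.0, 91.6 and 77.6 CPM. The clusters were not tested apart, and the part of their mix in the changes of Vim and Nes was not tested.

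Lcn2 in fibroblasts (Cluster 14, 9 mice) was 0 CPM in WT 1 d and 273 and 283 CPM in Ryk cKO 1 d, from 2 and 19 UMIs, and 0 or 2.01 CPM in all other mice. It fell from 1 d to 7 d at a log2 fold change of -6.57 ± 1.33 (edgeR, Benjamini-Hochberg adjusted p = 0.0138; 1 of 6 tested, with 0.122% of 4113 genes called lower) and to 14 d at -8.31 ± 1.40 (0.00198; 1 of 6, with 0.0973%). The WT 1 d mouse held 0 UMIs, so that these values rest on the Ryk cKO mice, and mostly on the 19 UMIs of replicate 2. Lcn2 entered the fibroblast test through the mice in which it is high, so that these calls carry no weight. A single uninjured mouse had 10 fibroblasts, and the comparison with it was not made. S1pr3 in pericytes, the contractile cells of small vessels, was 146 and 353 CPM in uninjured WT, 161 and 120.3 CPM in uninjured Ryk cKO, 181 CPM in WT 1 d and 94.7 and 127 CPM in Ryk cKO 1 d, and the groups overlapped.

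The deletion of Ryk was not accompanied by a called difference in any of the 8 genes in astrocytes, as far as the genotypes of the sample titles hold. The Ryk counts above do not check them, and the cell names give 3 of the 15 mice the other genotype, WT replicate 2 uninjured and at 14 d and uninjured Ryk cKO replicate 2. With 8 group means and 11769 genes tested, edgeR called 0 of the 8 members and 0 genes for Ryk cKO against WT as a mean of the 3 injury times (0%), with 265 genes and 0 members with p under 0.05 before adjustment, while DESeq2 called 1 gene, not a member. For the difference between the genotypes in injured minus uninjured mice edgeR likewise called 0 (0%), with 258 genes and 0 members with p under 0.05 before adjustment, and DESeq2 called 0. The members' log2 differences, Ryk cKO against WT after injury, were -0.17 ± 0.43 for Gfap, -0.53 ± 0.64 for Vim, -0.07 ± 0.67 for Nes, -0.25 ± 0.46 for Cd44, 1.36 ± 1.05 for Lcn2, 0.47 ± 0.50 for Serpina3n, 1.45 ± 2.84 for Steap4 and -0.86 ± 0.63 for S1pr3. The standard errors ran from 0.43 to 2.84, and a difference that was not called is not shown to be absent. With conditions read from the cell names edgeR also called 0 members and 0 genes for the mean of the injury times, with 406 genes and 0 members with p under 0.05 before adjustment, and DESeq2 was not run on them. Under these names uninjured WT and WT 14 d each held a single mouse. For uninjured mice and for injured minus uninjured mice, edgeR then called 0 genes. Many more genes had p under 0.05 before adjustment there than under the titles. At 1 d and 7 d edgeR called 0 genes, with 665 and 629 at p under 0.05 before adjustment, 2 and 1 members among them.

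By time point, edgeR called 0 genes for genotype in uninjured mice and at 1 d, 7 d and 14 d, with 177, 402, 101 and 116 genes with p under 0.05 before adjustment, where DESeq2 had 51, 128, 30 and 16 and also called 0. The single member among them was Lcn2 at 1 d, at -2.16 ± 0.77 (edgeR, Benjamini-Hochberg adjusted p = 0.913), from 689 CPM in 1 WT mouse against 69.0 and 151 CPM in Ryk cKO. Vim at 14 d was lower in both Ryk cKO mice than in both WT mice, at -1.88 ± 0.95, and Gfap and S1pr3 at 14 d had the same order, none past the test. With the replicate block edgeR called 1 gene at 14 d and 1 for the mean of the injury times, neither a member. Leaving out uninjured WT or Ryk cKO replicate 2, which left a single mouse in that group, raised the uninjured count of 177 several-fold. The interaction terms were -0.39 ± 0.81 for Gfap, -1.75 ± 1.45 for Vim, -1.99 ± 1.66 for Nes, -1.04 ± 0.90 for Cd44, 4.79 ± 2.97 for Lcn2, 0.37 ± 1.25 for Serpina3n and -1.39 ± 2.52 for S1pr3. The term for Steap4, which was at 0 UMIs in all uninjured mice, is not given.

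Across the 17 clusters, different cell types led in different genes when levels were averaged over mice of all times (mean ± SD). The mix of times differed between clusters, from 15 mice in Clusters 1, 3, 4, 7 and 9 to 10 in Cluster 13, with 1 uninjured, 5 in Clusters 15 and 16 and 4 in Cluster 17, so that the order rests in part on which mice had 10 cells. In uninjured mice alone Serpina3n, for example, was 43.4 ± 67.9 CPM in Cluster 2 and 24.5 ± 30.9 CPM in Cluster 8. Gfap was highest in Cluster 5 at 1676 ± 986 CPM, ahead of Cluster 2 at 672 ± 291 and Cluster 7 at 566 ± 347. Cluster 13 followed at 345 ± 448, Cluster 8 at 235 ± 272, Cluster 14 at 203 ± 405, Cluster 3 at 188 ± 88.4 and Cluster 4 at 157 ± 124 CPM. Below these came Cluster 11 at 87.8 ± 79.6, Cluster 17 at 82.2 ± 116, Cluster 15 at 76.0 ± 115, Cluster 10 at 71.1 ± 81.5, Cluster 16 at 68.9 ± 82.0, Cluster 1 at 56.4 ± 71.8, Cluster 9 at 50 ± 51.9, Cluster 6 at 36.9 ± 36.8 and Cluster 12 at 18.4 ± 26.3. Of the neighbours in that order, Cluster 5 exceeded Cluster 2, and Cluster 11 exceeded Cluster 17, by more than the spread of the difference within mice, and the others did not. Neurons (Cluster 3) held Gfap UMIs in every mouse, at 42.8 to 349 CPM, and endothelial cells at 0 to 285 CPM, and what share of these counts was free RNA was not tested. Cluster 13, deposited without a cell type name, held all 6 ependymal markers, led by Tmem212, at a sum of 3478 CPM. In Cluster 14 the mean rested on Ryk cKO 14 d replicate 2, with 273 Gfap UMIs at 1231 CPM.

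Vim was highest in Cluster 13 at 1645 ± 1725 CPM, then in fibroblasts (Cluster 14) at 1208 ± 592, immune cells (Cluster 12) at 1017 ± 527, myeloid cells (Cluster 16) at 932 ± 885, endothelial cells (Cluster 1) at 689 ± 258, pericytes (Cluster 9) at 535 ± 208, Schwann cells (Cluster 15) at 434 ± 209, red blood cells (Cluster 17) at 376 ± 312, Cluster 5 at 262 ± 355, Cluster 10 at 237 ± 207 and Cluster 2 at 105 ± 190. The remaining clusters, in the order 11, 3, 7, 8, 6 and 4, lay between 51.8 ± 62.4 and 14.7 ± 9.75 CPM. The mean of Cluster 2 rested on 3 UMIs in WT 7 d replicate 1, at 656 CPM, and over mice with at least 30 cells it was 55.5 CPM. No neighbours in the order of Vim differed beyond their spread. The first place of Cluster 13 rested on WT 1 d and Ryk cKO 1 d replicate 1, at 4844 CPM each. Cluster 13 was above Cluster 5 in 10 of 10 mice, and its 3 mice at 1 d gave 4844, 4844 and 1132 CPM against 628 CPM in the only uninjured mouse with 10 cells. Gfap in Cluster 13 was 1264, 1106 and 271 CPM at 1 d and 126 CPM in that mouse, and at most 151 CPM later.

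Nes was highest in the cells of the vessel wall, at 271 ± 60.2 CPM in endothelial cells and 252 ± 64.0 CPM in pericytes, followed by Cluster 10 at 99.5 ± 76.1, Cluster 15 at 91.1 ± 57.2, Cluster 17 at 75.8 ± 106, Cluster 2 at 50.3 ± 130, Cluster 14 at 37.1 ± 60.9, Cluster 5 at 36.1 ± 49.4 and Cluster 6 at 24.0 ± 29.9. Clusters 13, 12, 16, 11, 3, 4, 7 and 8 followed, from 19.1 ± 27.7 to 2.90 ± 6.27 CPM, and pericytes above Cluster 10 were the only neighbours set apart beyond their spread. Pericytes held all 6 endothelial markers in every mouse, at sums of 2271 to 7226 CPM, and the part of endothelial RNA in their Nes level was not tested. The mean of Cluster 2 rested on 2 UMIs in WT 7 d replicate 1, at 438 CPM from 14 cells, with 0 to 56.0 CPM in the other 10 mice, and over mice with at least 30 cells it was 12.8 CPM. Nes was higher in Cluster 10 than in Cluster 6, both microglia, in 14 of 14 mice.

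Cd44 was highest in myeloid cells at 607 ± 319 CPM, then in immune cells at 363 ± 234, Cluster 5 at 156 ± 150, fibroblasts at 146 ± 135, Cluster 10 at 77.6 ± 42.0, Cluster 7 at 70.5 ± 58.9 and neurons at 69.9 ± 66.3. Clusters 17, 4, 15, 2, 8, 13, 11, 6, 9 and 1 followed, from 60.3 ± 56.5 to 8.29 ± 8.83 CPM, and no neighbours differed beyond their spread. Cluster 10 was above Cluster 6 in Cd44 in 14 of 14 mice.

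Lcn2 was highest by far in the myeloid cells of Cluster 16, at 4087 ± 1747 CPM over 5 mice, where 9 of 9 neutrophil markers summed to 144275 CPM. It was 5770 CPM in uninjured WT replicate 2, 3275 CPM in WT 1 d, 3431 and 1947 CPM in Ryk cKO 1 d and 6012 CPM in Ryk cKO 7 d replicate 2, so that in these cells the 1 d mice were not above the others. The next were Cluster 17 at 215 ± 338, Cluster 12 at 205 ± 642, endothelial cells at 163 ± 298, Cluster 5 at 119 ± 324, Cluster 14 at 61.9 ± 122, Cluster 7 at 20.7 ± 66.3 and Cluster 9 at 18.6 ± 40.0 CPM. Clusters 6, 15, 2, 10, 8, 4 and 3 were between 8.25 ± 17.7 and 2.72 ± 5.26 CPM, and Clusters 13 and 11 were at 0. Cluster 16 alone stood apart from its neighbour beyond the spread. The mean of Cluster 17 rested on 51 UMIs in uninjured WT replicate 2, at 717 CPM. The mean of Cluster 12 rested on 72 UMIs in Ryk cKO 1 d replicate 1, at 2031 CPM, with 22.5 CPM in replicate 2 and 0 in the other mice, and endothelial cells were above pericytes in 15 of 15 mice.

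Serpina3n was highest in Cluster 8 at 829.6 ± 781 CPM, then in Cluster 4 at 189 ± 206, oligodendrocyte precursors (Cluster 11) at 164 ± 226, Cluster 5 at 129 ± 161, Cluster 15 at 82.8 ± 101, Cluster 13 at 73.2 ± 128, Cluster 7 at 66.1 ± 91.7 and Cluster 2 at 36.9 ± 60.7. Clusters 17, 14, 1, 3, 16, 12, 10, 9 and 6 followed, from 24.3 ± 43.5 to 3.74 ± 8.45 CPM, and Clusters 8 and 4 were the only neighbours set apart. Steap4 was highest in myeloid cells at 84.8 ± 83.7 CPM, then in fibroblasts at 32.1 ± 59.0, pericytes at 15.4 ± 17.6 and Cluster 5 at 12.9 ± 22.7 CPM. It was below 1 CPM in Clusters 12, 8, 4, 3, 15, 7, 1, 13 and 10, in that order, where Cluster 3 exceeded Cluster 15, and at 0 in Clusters 6, 2, 11 and 17. S1pr3 was highest in pericytes at 229 ± 99.0 CPM, set apart from Schwann cells at 49.3 ± 36.2, and then came Cluster 5 at 41.9 ± 56.4, Cluster 12 at 19.6 ± 56.8, Cluster 13 at 13.8 ± 16.8, Cluster 3 at 12.1 ± 28.0 and Cluster 7 at 7.99 ± 17.3 CPM. Clusters 17, 14, 11, 1, 4, 2, 8, 6 and 10 followed, from 6.70 ± 7.83 to 0.456 ± 1.39 CPM, and Cluster 16 held 0. The S1pr3 mean of Cluster 12 rested on 2 UMIs in WT 7 d replicate 1, at 181 CPM.

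**Figure D3:**
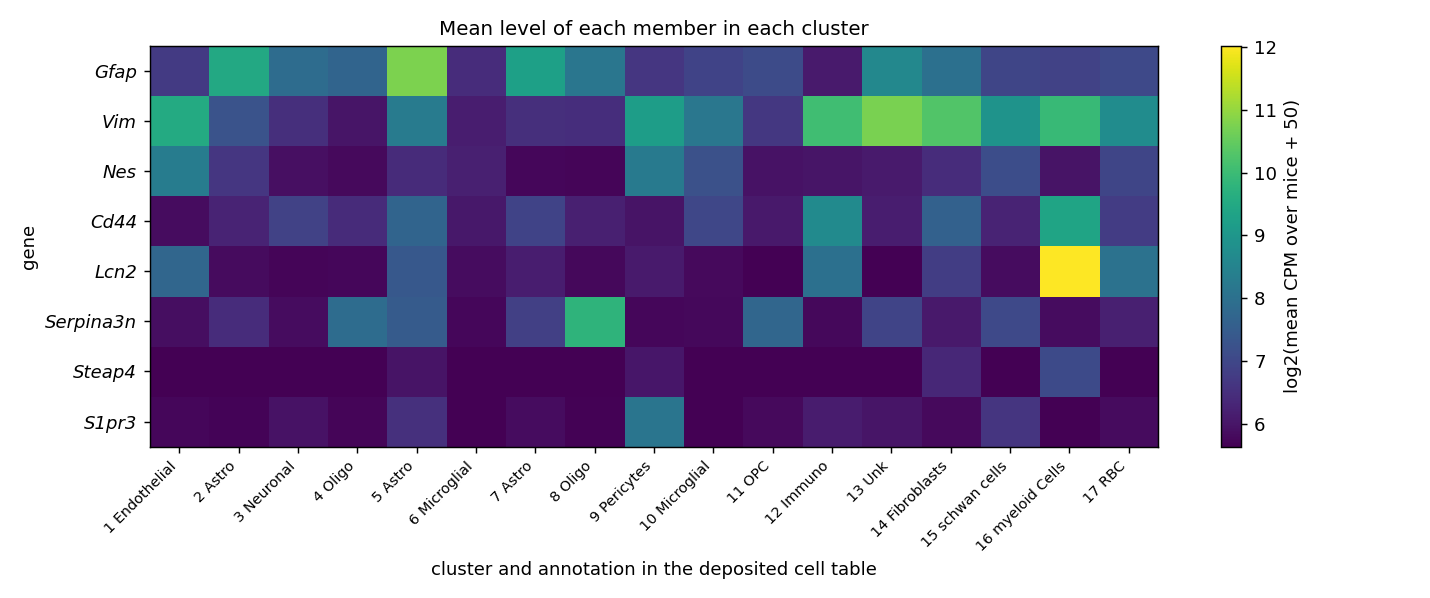
Mean level over mice of each of the 8 genes in each of the 17 deposited clusters, as log2(mean CPM + 50) in colour, with genes as 1 axis and clusters as the other. Gfap is highest in Cluster 5, Vim in Cluster 13, Nes in Cluster 1, Cd44, Lcn2 and Steap4 in Cluster 16, Serpina3n in Cluster 8 and S1pr3 in Cluster 9.

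The genes closest in pattern to each member were taken over the 17 clusters by Pearson's r of log2(CPM + 50) among 6503 genes, as a description, since the clusters share mice and depth. For Gfap they were Ppp1r3c (0.924), Ndrg2 (0.913) and Enho (0.907), for Vim Ifitm3 (0.912), Txn1 (0.893) and Tax1bp1 (0.855), and for Nes Ctnnb1 (0.885), Bsg (0.859) and Elk4 (0.849). For Cd44 they were Ccl7 (0.890), Emb (0.886) and Cfp (0.874), and for Lcn2 Lrg1 (0.934), Gda (0.928) and 2310001H17Rik (0.923). For Serpina3n they were Kif1bp (0.933), Shisa4 (0.920) and Cmtm5 (0.910), for Steap4 Bop1 (0.915), Ptgs2 (0.907) and Slc7a11 (0.885), and for S1pr3 Myl9 (0.931), Gm13889 (0.931) and Slc19a1 (0.913). Among the members themselves r was highest for Lcn2 with Steap4 (0.774) and with Cd44 (0.772) and lowest for Serpina3n with Nes (-0.435) and with Vim (-0.426).

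The genes lie on 6 chromosomes of GRCm38. Vim (ENSMUSG00000026728.9), Cd44 (ENSMUSG00000005087.17) and Lcn2 (ENSMUSG00000026822.14, 32384633 to 32388252) lie on chromosome 2, and Gfap (ENSMUSG00000020932.14) on 11, Nes (ENSMUSG00000004891.16) on 3, Serpina3n (ENSMUSG00000021091.8, 104406729 to 104414329) on 12, Steap4 (ENSMUSG00000012428.9) on 5 and S1pr3 (ENSMUSG00000067586.4, 51408639 to 51422797) on 13. The promoters of the 3 that rose together in astrocytes at 1 d are shown, as the 250 bases before the start of each gene in RefSeq, build GRCm38.p6, 5′ to 3′ on the strand of the gene: Lcn2 at chr2:32387740-32387989 on the minus strand, Serpina3n at chr12:104406458-104406707 and S1pr3 at chr13:51408368-51408617, both on the plus strand. Capitals mark matches to searched patterns that fewer than 10% of promoters hold.
Lcn2: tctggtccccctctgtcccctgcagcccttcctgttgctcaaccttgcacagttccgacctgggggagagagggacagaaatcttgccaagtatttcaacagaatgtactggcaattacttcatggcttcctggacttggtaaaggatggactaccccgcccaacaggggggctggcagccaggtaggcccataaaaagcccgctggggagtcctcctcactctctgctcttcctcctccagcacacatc
Serpina3n: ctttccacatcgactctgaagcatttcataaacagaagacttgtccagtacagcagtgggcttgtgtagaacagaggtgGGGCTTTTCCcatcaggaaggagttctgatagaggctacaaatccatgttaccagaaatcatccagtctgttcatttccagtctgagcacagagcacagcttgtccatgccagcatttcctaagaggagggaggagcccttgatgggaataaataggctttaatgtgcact
S1pr3: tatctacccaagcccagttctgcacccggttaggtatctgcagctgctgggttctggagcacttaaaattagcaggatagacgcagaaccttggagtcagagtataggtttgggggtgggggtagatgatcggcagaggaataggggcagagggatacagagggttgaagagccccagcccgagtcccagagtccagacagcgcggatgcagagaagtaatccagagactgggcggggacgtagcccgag

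All 8 members were matched to a promoter, and 7 patterns were searched on both strands of 32851 promoters, N standing for any base. The pattern of GGG, 2 bases of any kind and TTTCC was in 1.41% of all promoters and in those of Serpina3n, Vim and Steap4. In Serpina3n it ran from 171 to 162 bases before the start and is the stretch in capitals. TTCNNNGAA was in 7.02% of promoters and in that of Steap4. GGGANTTCC (1.43%), GGAANTTCC (0.813%) and TGANTCA (6.75%) were in 0 of the 8. The pattern of CCA, 6 bases of any kind and GG was in 46.7% of promoters and in 6 of the 8, those of Gfap, Vim, Nes, Lcn2, Steap4 and S1pr3. CACCC was in 52.0% of promoters and in 5 of the 8, those of Gfap, Vim, Nes, Steap4 and S1pr3. Matches of the patterns that end in TTCC or TTTCC can overlap, and a match describes the letters of these windows alone.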

How the data were processed

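The authors aligned the reads to the mouse genome (mm10, GRCm38), counted UMIs per cell and gene, and clustered the cells; their notes name Cell Ranger, Seurat and R 4.1.2. The deposited values are raw UMI counts, and clusters, cell types and mouse of each cell come from the deposited cell table. The 8 genes and the lists of related genes and cell type markers were chosen with earlier results of these data known. UMIs were summed per mouse and cluster or cell class (Clusters 2, 5 and 7 for astrocytes), with at least 10 cells, and divided by the sum over all genes for CPM. Tests used edgeR 4.0.16 (TMM, filterByExpr, quasi-likelihood; limma 3.58.1, R 4.3.3) in an additive fit of time and genotype, or 8 group means for genotype, with Benjamini-Hochberg adjustment over all genes tested and a threshold of 0.05. The tests were tried on simulated data first. A single library in a group borrows its spread from the other groups in this fit.

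Named genes were all 8 members, every gene of the lists that passed a test, up to 4 others a list by mean level in astrocytes, and the 3 most alike in pattern per member among genes of at least 100 CPM in a cluster; Nefl, Nefm, Lmna, Serping1 and Srgn were otherwise picked after their values were seen. Neighbouring clusters were called apart where the mean difference within mice exceeded its SD. Floors are 3 counts over the group and intervals are 95%, for counting error only. Alternatives were DESeq2 1.42.0, library totals without TMM, other filters on low counts, 8 group means, each genotype alone, the replicate block, a term for animal numbers below 10000, at least 30 cells, conditions read from the cell names, cells thinned to 500 UMIs, cells without S100a8 or S100a9, and fits that leave out 1 mouse. Thinning left out the 2961 cells that held fewer than 500 UMIs. Gene positions follow GENCODE M21. Python 3.11.15, numpy 2.4.6, pandas 2.3.3, scipy 1.17.1 and matplotlib 3.10.9 were used.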

Additional observations from a re-analysis of the deposited data

Results flagged for a closer look

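In 9 of 67 groups of 4 mice, 1 mouse lay apart from the other 3 by more than Dixon's 95% critical value, where chance gives about 1 in 20 groups. Cd44 in WT 14 d replicate 1 was 101 CPM in astrocytes, 126 CPM in Cluster 5 and 112 CPM in Cluster 7, against 35.5 to 39.2, 44.8 to 53.1 and 25.6 to 36.0 CPM in the other 14 d mice; the 3 values share cells. Vim in Cluster 7 of the same mouse was 121 CPM against 5.68 to 22.3 CPM. Serpina3n in Ryk cKO 7 d replicate 1 was 270.2 CPM in astrocytes and 568 CPM in Cluster 5, against 31.5 to 39.4 and 0 to 66.8 CPM in the other 7 d mice. Nes in Cluster 7 of WT 14 d replicate 2 was 17.1 CPM against 4.47 to 5.68 CPM. Gfap in endothelial cells of Ryk cKO 14 d replicate 1 was 22.3 CPM against 51.0 to 55.9 CPM, and Gfap in oligodendrocytes of Ryk cKO 14 d replicate 2 was 234 CPM against 102 to 124 CPM. None of these was examined for a cause.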

How the results depend on the processing

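The counts of members called were set against each alternative. Thinning to 500 UMIs changed 2 things, the depth of a cell and the set of cells, since smaller cells were left out. It left 7 cells in Cluster 5 of Ryk cKO 1 d replicate 1, under the limit of 10. In astrocytes at 1 d, 3 became 0 in WT alone, in Ryk cKO alone and with conditions read from the cell names, 2 with 8 group means, 2 of 5 tested with at least 10 UMIs in 3 mice, where Lcn2 and Nes were not tested, 2 of 5 with cells thinned to 500 UMIs, where S1pr3 and Nes were not, and 4 with library totals. It became 6 with the animal number term and with no filter on low counts, where genes called higher went from 27 of 8923 to 89 of 9971 and 125 of 27525. At 7 d, 0 became 2 and 2 with this pair, with 39 genes higher and 246 lower, and 19 higher and 64 lower; at 14 d, 2 and 1, with 25 higher and 223 lower, and 16 higher and 36 lower. In Cluster 7 at 1 d, 3 became 0 in WT alone, with thinned cells, where 1 was tested, and with the cell names, 2 in Ryk cKO alone, 4 with the animal number term, with at least 10 UMIs in 3 mice and without the 4 shallow libraries, and 6 with no filter. In Cluster 5 at 1 d, 1 became 3 with DESeq2, with no filter, with the replicate block and without the 4 shallow libraries, 6 with the animal number term, 2 of 5 tested with thinned cells, and 0 in WT alone and with the cell names. DESeq2 there called 20 of 4709 genes higher and 2 lower, against 4 higher in the main fit. With at least 10 UMIs in 3 mice 0 of 4 were called, and Lcn2, the only member called in Cluster 5, was not tested. Endothelial cells went from 1 to 0 in WT alone, in Ryk cKO alone and with the cell names, and to 2 with the animal number term and with no filter. Oligodendrocytes went from 0 to 1 with DESeq2, the animal number term, at least 10 UMIs in 3 mice, library totals, no filter, the replicate block and without the 4 shallow libraries. For alternatives other than DESeq2 in Cluster 5 or Cluster 7 alone, and outside the astrocytes, counts over all genes are not given. Rises in the member counts there stand without that background and carry no weight. The cause of these shifts was not tested.

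Leaving out 1 mouse at a time, the counts ran from 1 to 3 in astrocytes at 1 d, stayed at 0 at 7 d, 14 d and for genotype, and ran from 0 to 2 in Cluster 5, 0 to 3 in Cluster 7, 0 to 2 in endothelial cells and 0 to 1 in oligodendrocytes. The genotype comparisons that use 1 d, among them the mean of the injury times, could not be fitted without the WT 1 d mouse. In Cluster 16, 1 mouse had 30 cells, at 1009 CPM for Cd44 and 6012 CPM for Lcn2. Leaving out cells with shared barcodes, which changed no count of members, and leaving out the shallow libraries were chosen after seeing the data. The tests against 1 d, and those in microglia and fibroblasts, were not refitted without single mice. Of single genes' fold changes, 520 kept their side of the threshold, 39 crossed to a call, 35 lost one, 45 without a call moved by more than their error, and 0 of those called in either fit changed sign. Values without a call did change sign, such as Lcn2 in astrocytes at 7 d (-3.21 to 4.15) and 14 d (-2.11 to 4.24). Counts of 0 to 5 UMIs in the shallow libraries limit Lcn2, Nes, Steap4 and S1pr3 in astrocytes.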
